A study of Saccharomyces cerevisiae with 36 samples.

Results

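The 10 genes described here encode the enzymes of the pentose phosphate pathway in the yeast Saccharomyces cerevisiae: ZWF1, SOL3, GND1, GND2, RKI1, RPE1, TKL1, TKL2, TAL1 and NQM1. They were taken by gene name from the 7122 gene lines of each count table, and all 10 were found and passed the filter on low counts. The study grew yeast in chemostats, vessels fed continuously with medium in which 1 nutrient is scarce. It compared a small chemostat (MC, read here as mini-chemostat) with a commercial reactor (DASGIP). All 36 libraries came from the CEN.PK 113-5D background, in 3 sets. The DASGIP tagged set grew the strain HAP1-TAP, whose regulator Hap1p carries a CBP-ProtA purification tag at its C-terminus, in the 1 L DASGIP vessel. The MC tagged set grew the same strain in MC vessels, and the MC untagged set grew the parent CEN.PK 113-5D, also in MC vessels. The 4 limitations were each grown as 3 biological replicates per set: nitrogen limitation with 6% glucose (N-lim), ethanol limitation with 0.5% ethanol (Et-lim), glucose limitation with 0.75% glucose (Glu-lim), and joint oxygen and glucose limitation with 1% glucose (OxGlu-lim). Whether the strain HAP1-TAP was 1 clone is not given in the sources used here.

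The pathway branches from glycolysis at glucose 6-phosphate. Its oxidative branch oxidises this sugar to ribulose 5-phosphate and is a main source of NADPH, the reductant for biosynthesis and for defence against oxidants. Its non-oxidative branch interconverts sugar phosphates in both directions, supplies ribose for nucleotides and erythrose 4-phosphate for aromatic amino acids, and returns the surplus to glycolysis. Yeast keeps a pair of isoenzyme genes for the decarboxylating dehydrogenase (GND1 and GND2), for transketolase (TKL1 and TKL2) and for transaldolase (TAL1 and its paralog NQM1). The first of each pair is known as the major form on glucose.

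The libraries held 10.7 to 22.5 M counts (median 16.7 M), of which the 10 genes took 0.122% to 0.305%. Mitochondrially encoded genes took 9.19% to 46.6%. The lowest count of any member in any library was 85, for NQM1. Markers of haploid a cells (7 genes) summed to 247 to 3734 CPM (counts scaled to a common library total), with the highest sums under N-lim. Markers of alpha cells (4 genes) summed to 31.4 to 181 CPM and those of meiotic cells (7 genes) to 27.9 to 89.8 CPM, and no marker of these 3 lists was at 0 in all libraries. Their part in the results was not tested. A pair of libraries stood apart from their groups in several members: DASGIP tagged Et-lim replicate 1 and MC tagged N-lim replicate 3. Below, the libraries that stood apart are this pair. Other libraries also lay away from their groups. MC untagged Glu-lim replicate 3 held 299 CPM of GND2, beside 491 and 470 in replicates 1 and 2. It held 605 CPM of TKL1, beside 462 and 473. MC tagged OxGlu-lim replicate 1 held 45.7 CPM of GND2, beside 83.4 and 79.7 in replicates 2 and 3. Where leaving out this pair changed a call described here, the value without it is given too. The pair was chosen after the data were seen, so a call gained without it carries no weight on its own. In these bulk samples fewer cells with a transcript and less transcript per cell cannot be told apart.

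Each member is a single coding exon in the R64 annotation and overlaps no other RefSeq gene. No stretch of 50 bases of any member occurs elsewhere in the R64 genome, on either strand. The isoenzyme genes are alike but separable: GND2 and GND1 are identical at 79.1% of 1470 aligned bases, TKL2 and TKL1 at 69.6% of 2040, and NQM1 and TAL1 at 68.9% of 999. The longest run shared by GND2 (chrVII:1004669-1004688, plus strand) and GND1 (chrVIII:470996-471015, plus strand) is 20 bases, and it is shown because it limits how reads of the closest pair could be mixed.
GND2 and GND1 shared run: atgggtcaaaatttgatctt
TKL2 and TKL1 share at most 17 bases in a row, as do NQM1 and TAL1. R64 is the genome of a strain other than CEN.PK, and sequence that differs between them was not examined here.

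The 300 bases before the start codon are shown for 4 genes, read from the R64 genome of RefSeq and written on the strand of the gene. GND2, TKL2 and NQM1 varied most among the 10 genes, and ZWF1 held the most matches to the stress response element. This element, AGGGG or CCCCT on the other strand, is the known binding motif of the stress regulators Msn2 and Msn4. Capitals mark it. The windows are chrVII:1004324-1004623 on the plus strand for GND2, chrII:476438-476737 on the minus strand for TKL2, chrVII:581437-581736 on the minus strand for NQM1, and chrXIV:197944-198243 on the minus strand for ZWF1.
GND2: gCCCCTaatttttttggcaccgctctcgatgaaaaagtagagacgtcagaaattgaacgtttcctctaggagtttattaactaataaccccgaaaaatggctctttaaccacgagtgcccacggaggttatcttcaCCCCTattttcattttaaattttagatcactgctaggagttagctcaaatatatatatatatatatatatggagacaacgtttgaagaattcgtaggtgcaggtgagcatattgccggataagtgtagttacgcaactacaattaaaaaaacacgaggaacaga
TKL2: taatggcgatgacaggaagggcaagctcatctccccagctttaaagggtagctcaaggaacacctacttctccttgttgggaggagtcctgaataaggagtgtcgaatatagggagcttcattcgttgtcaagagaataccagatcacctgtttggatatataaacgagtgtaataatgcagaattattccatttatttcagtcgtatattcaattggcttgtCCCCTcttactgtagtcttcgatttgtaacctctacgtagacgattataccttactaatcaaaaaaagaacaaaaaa
NQM1: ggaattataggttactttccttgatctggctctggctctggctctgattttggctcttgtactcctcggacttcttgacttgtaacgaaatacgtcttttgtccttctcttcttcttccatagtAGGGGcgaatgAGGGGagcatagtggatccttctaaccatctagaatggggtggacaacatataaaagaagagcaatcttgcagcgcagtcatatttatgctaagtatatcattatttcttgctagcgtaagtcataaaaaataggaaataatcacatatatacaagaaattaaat
ZWF1: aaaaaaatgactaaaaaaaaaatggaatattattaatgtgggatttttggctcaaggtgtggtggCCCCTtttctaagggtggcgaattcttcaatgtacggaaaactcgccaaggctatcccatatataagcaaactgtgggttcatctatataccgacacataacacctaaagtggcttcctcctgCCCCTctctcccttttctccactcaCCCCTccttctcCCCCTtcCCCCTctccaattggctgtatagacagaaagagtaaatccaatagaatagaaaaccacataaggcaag
The window held 2 matches in GND2, 1 in TKL2, 2 in NQM1 and 5 in ZWF1. In NQM1 the matches lay at -176 to -172 and -165 to -161 from the start codon, and in GND2 at -299 to -295 and -164 to -160. SOL3, TKL1 and TAL1 held 1 match each, while GND1, RKI1 and RPE1 held none. A match occurred in 7 of the 10 members, against 22.2% of 6020 upstream windows of coding genes, and 2 or more matches occurred in 3.44% of those windows. The Yap1 motif, TTACTAA or TTAGTAA on the other strand, was found in TKL2 alone among the members, against 7.86% of all windows. The Gcr1 motif, CTTCC or GGAAG, was found in ZWF1, TKL1, TKL2, TAL1 and NQM1, against 45.4% of all windows. Of the ZWF1 matches, the Gcr1 match at -72 to -68 overlaps the stress element matches at -75 to -71 and -68 to -64. The SOL3 window reaches 38 bases into the neighbouring gene YHR162W. These are matches of letters, and binding was not measured.

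Levels are CPM on library sizes scaled by the trimmed mean of M values (TMM). Differences are log2 fold changes with their standard error (SE) from edgeR's quasi-likelihood test, with Benjamini-Hochberg adjustment over all 6612 genes tested and calls were made at an adjusted p under 0.05. Per kilobase of coding sequence, the mean level over all libraries was highest for TAL1 (316 CPM per kb), GND1 (305), TKL1 (241) and ZWF1 (210). It was 109 CPM per kb for NQM1, 93.3 for GND2, 88.5 for SOL3, 88.0 for RPE1, 79.2 for TKL2 and 54.8 for RKI1. The order of spread was different. Between the lowest and the highest of the 12 group means, NQM1 differed 55.5-fold, TKL2 51.5-fold and GND2 27.3-fold, RKI1 8.14-fold and GND1 3.25-fold, and the other 5 genes at most 2.45-fold.

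**Figure D1:**
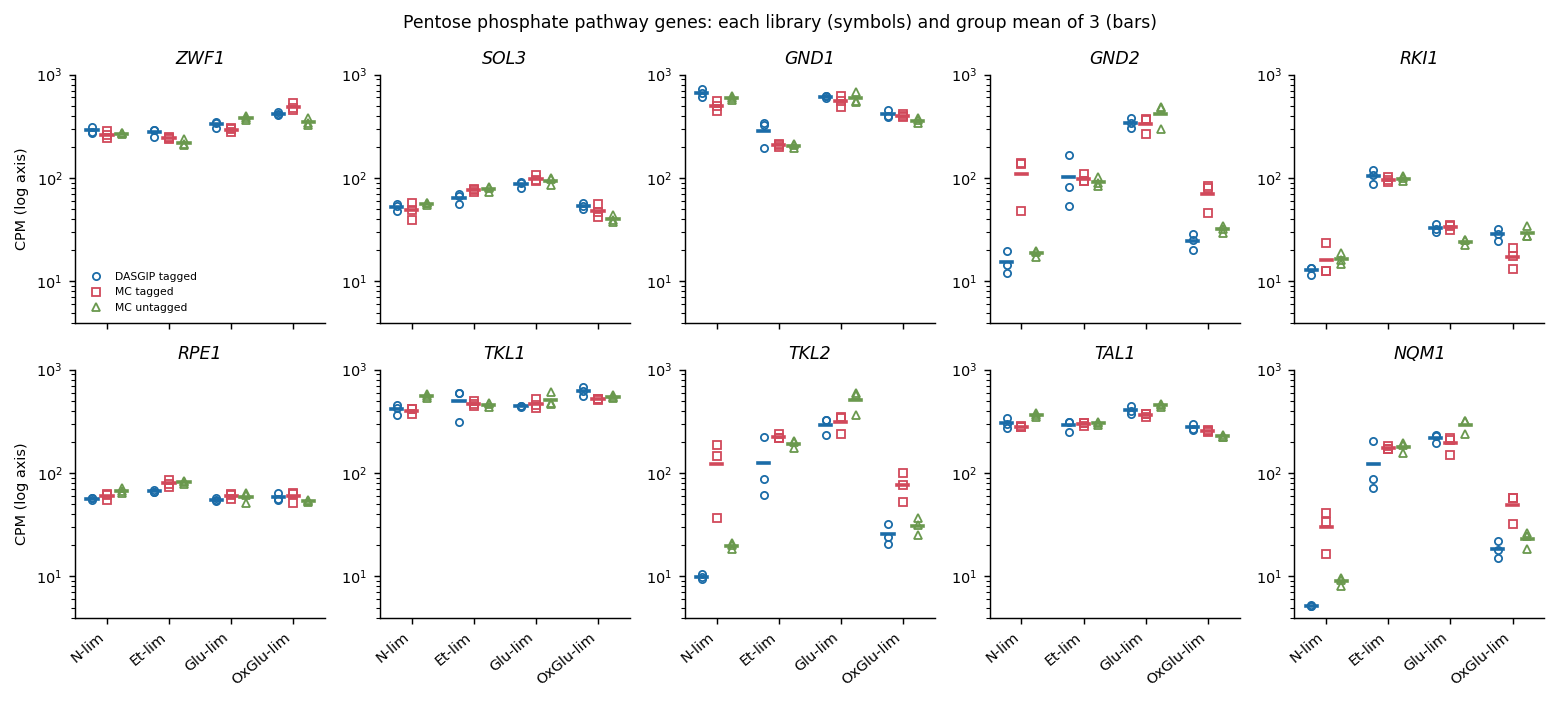
CPM of each pathway gene in every library (symbols, log axis) and the mean of 3 (bars), by limitation and set. GND2, TKL2 and NQM1 run from 5.21 to 601 CPM and fall apart by limitation and set, whereas RPE1, TKL1 and TAL1 stay within 50.9 to 85.8, 312 to 672 and 224 to 467 CPM.

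Limitation was compared first, as the mean over the 3 sets. Against Glu-lim, 0 of the 10 members were higher and 7 were lower under N-lim, where 71.7% of all genes tested were called (34.3% higher, 37.4% lower). For the mean of sets, the 0 holds for edgeR at an unadjusted p under 0.05 and for DESeq2. Within the MC untagged set alone, RPE1 was called higher. Under Et-lim 2 were higher and 7 lower, where 59.3% of all genes were called (30.6% higher, 28.7% lower). Under OxGlu-lim 2 were higher and 7 lower, where 65.2% of all genes were called (32.9% higher, 32.3% lower). The median log2 fold change of the members was -0.60 under N-lim, -0.44 under Et-lim and -0.64 under OxGlu-lim, beside -0.02, 0.01 and 0.01 over all genes. These 3 comparisons share the Glu-lim libraries.

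**Figure D2:**
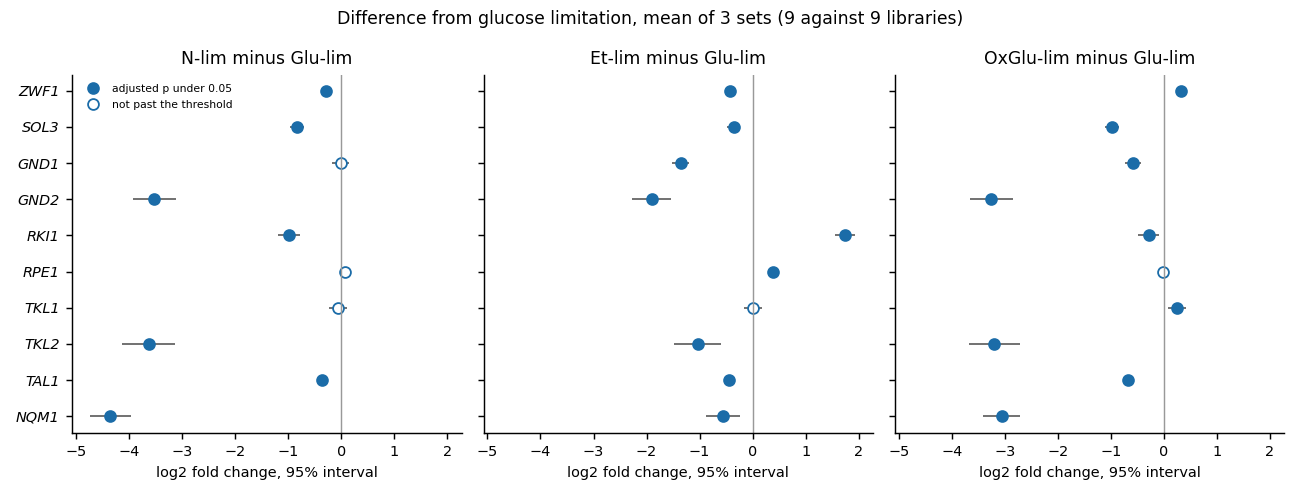
Log2 fold change of each member from Glu-lim with its 95% interval, as the mean of 3 sets (9 against 9 libraries); filled symbols passed the adjusted p of 0.05. NQM1, TKL2 and GND2 lie at -4.35 to -3.06 under N-lim and OxGlu-lim, and RKI1 stands at 1.74 under Et-lim.

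In the oxidative branch, ZWF1 encodes glucose-6-phosphate dehydrogenase, the enzyme of the first and committed step. Over 9 libraries each, its lowest, median and highest levels were 329, 414 and 535 CPM under OxGlu-lim, 275, 340 and 397 under Glu-lim, 242, 271 and 314 under N-lim, and 207, 245 and 292 under Et-lim. Neighbouring limitations overlapped in this order, while OxGlu-lim did not overlap with N-lim or Et-lim. ZWF1 rose under OxGlu-lim (0.32 ± 0.05 SE, adjusted p = 8.6e-07) and fell under N-lim (-0.28 ± 0.05, adjusted p = 6.1e-06) and Et-lim (-0.43 ± 0.05, adjusted p = 8.7e-09), all against Glu-lim. The rise under OxGlu-lim was 0.34 ± 0.08 in DASGIP tagged and 0.75 ± 0.08 in MC tagged libraries. In MC untagged libraries it was -0.11 ± 0.08 (adjusted p = 0.25), so the mean does not describe that set. Of all genes, 44.4%, 45.1% and 58.3% were called in these 3 sets. The ZWF1 fall under N-lim did not pass in MC tagged libraries (-0.15, adjusted p = 0.12). In DASGIP tagged libraries it was -0.20 (adjusted p = 0.046), which was lost without N-lim replicate 1 or 2 or Glu-lim replicate 1 or 3 of that set (adjusted p of 0.12 to 0.18). The MC untagged group means were 269 CPM under N-lim and 379 under Glu-lim.

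SOL3 encodes 6-phosphogluconolactonase, which hydrolyses the product of ZWF1. Its median level was 93.0 CPM under Glu-lim, 73.7 under Et-lim, 54.6 under N-lim and 46.9 under OxGlu-lim. The Glu-lim libraries (79.9 to 106 CPM) did not overlap with those of N-lim (39.4 to 57.0) or OxGlu-lim (37.5 to 57.9), and overlapped with those of Et-lim (55.7 to 81.9). SOL3 fell against Glu-lim under OxGlu-lim (-0.98 ± 0.06), N-lim (-0.83 ± 0.06) and Et-lim (-0.36 ± 0.06), with adjusted p of 2.0e-14, 5.6e-13 and 1.3e-05. N-lim and OxGlu-lim differed by 0.15 ± 0.06 as the mean of sets (adjusted p = 0.033). Their group means were 52.4 and 53.9 CPM in DASGIP tagged, 48.6 and 48.1 in MC tagged, and 56.0 and 40.1 in MC untagged libraries. The mean therefore does not describe the DASGIP tagged or MC tagged set. The call was lost with upper-quartile scaling and under several other settings. It was also lost without DASGIP tagged N-lim replicate 1 or 2, DASGIP tagged OxGlu-lim replicate 1, MC tagged N-lim replicate 3, MC tagged OxGlu-lim replicate 1 or 2, or MC untagged OxGlu-lim replicate 1 or 3, where the log2 fold change lay between 0.09 and 0.15.

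GND1 encodes the major 6-phosphogluconate dehydrogenase, which releases carbon dioxide and the pathway's remaining NADPH. Its lowest, median and highest levels were 485, 588 and 685 CPM under Glu-lim and 447, 597 and 732 under N-lim. They were 336, 387 and 455 under OxGlu-lim and 194, 209 and 337 under Et-lim. Glu-lim and N-lim overlapped throughout, and their difference was -0.01 with a 95% interval of -0.17 to 0.15. GND1 fell against Glu-lim under Et-lim (-1.35 ± 0.08, adjusted p = 2.8e-15) and OxGlu-lim (-0.59 ± 0.08, adjusted p = 7.1e-08). Under Et-lim, DASGIP tagged replicate 1, which stood apart from its group, held 194 CPM and lay with the MC libraries (201 to 212 CPM in MC tagged and 194 to 211 in MC untagged). The other DASGIP tagged Et-lim libraries held 325 and 337 CPM. The tables also list YHR182C-A, whose identifier adjoins that of GND1, at 31.0% to 37.5% of the GND1 CPM in the 36 libraries. Whether both lines count the same reads was not tested.

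GND2 encodes the minor 6-phosphogluconate dehydrogenase. Under Glu-lim it stood at 383, 302 and 343 CPM in DASGIP tagged, 265, 364 and 373 in MC tagged, and 491, 470 and 299 in MC untagged libraries. Under N-lim it stood at 19.7, 12.1 and 14.4 CPM in DASGIP tagged, 137, 141 and 47.8 in MC tagged, and 17.2, 19.3 and 19.5 in MC untagged libraries. Thus no N-lim library reached the lowest Glu-lim library, and the MC tagged N-lim libraries lay above those of the other sets. Under OxGlu-lim the range was 20.2 to 83.4 CPM and under Et-lim 53.5 to 167 CPM. The GND2 difference from Glu-lim was -3.53 ± 0.20 under N-lim (adjusted p = 4.1e-16), an 11.5-fold lower level. It was -3.26 ± 0.19 under OxGlu-lim (adjusted p = 3.2e-15) and -1.91 ± 0.18 under Et-lim (adjusted p = 3.3e-10). N-lim and OxGlu-lim could not be ordered for GND2 (-0.27, 95% interval -0.66 to 0.12). Within sets the difference was -0.77 in MC untagged libraries (adjusted p = 0.045), a call lost without any of the 6 libraries compared. In MC tagged libraries it was 0.64 (adjusted p = 0.085), and 0.99 (adjusted p = 0.0038) without MC tagged N-lim replicate 3. In DASGIP tagged libraries it was -0.69 (adjusted p = 0.084), and passed (adjusted p = 0.0086) without both libraries that stood apart or without DASGIP tagged N-lim replicate 1 (0.049). Neither library that stood apart is in this DASGIP tagged comparison, and without them the log2 fold change stayed at -0.69. Of all genes, 61.1%, 53.2% and 56.4% were called in these comparisons.

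In the non-oxidative branch, RKI1 encodes ribose-5-phosphate isomerase, which makes the ribose of nucleotides. It was highest under Et-lim in all 3 sets, at 87.0, 107 and 120 CPM in DASGIP tagged, 91.4, 102 and 95.4 in MC tagged, and 99.7, 92.7 and 104 in MC untagged libraries. The 27 libraries of the other limitations lay between 11.5 and 35.9 CPM, with no overlap. RKI1 rose under Et-lim by 1.74 ± 0.09 against Glu-lim (adjusted p = 8.9e-16, 3.34-fold) and by 2.03 ± 0.10 against OxGlu-lim (adjusted p = 8.0e-18). It fell under N-lim against Glu-lim (-0.98 ± 0.10, adjusted p = 3.7e-10). Under OxGlu-lim the mean difference from Glu-lim was -0.29 ± 0.10 (adjusted p = 0.010), made of -0.97 ± 0.17 in MC tagged libraries, -0.20 ± 0.17 in DASGIP tagged and 0.29 ± 0.17 in MC untagged libraries, and the latter values did not pass the test. RPE1 encodes ribulose-5-phosphate epimerase, which makes xylulose 5-phosphate for transketolase. Its median level was 78.5 CPM under Et-lim, 61.4 under N-lim, 57.2 under Glu-lim and 55.4 under OxGlu-lim. RPE1 rose under Et-lim against Glu-lim (0.38 ± 0.05, adjusted p = 7.9e-08), and the other 3 limitations could not be ordered as the mean of sets. Within MC untagged libraries RPE1 was higher under N-lim than under Glu-lim (0.20, adjusted p = 0.034). This was lost without replicate 2 of either group (adjusted p of 0.16 and 0.27). The group means were 56.7 and 55.0 CPM in DASGIP tagged and 59.6 and 60.4 in MC tagged libraries. The MC untagged N-lim libraries (64.1, 72.5 and 66.4 CPM) also lay above those of OxGlu-lim (52.9, 54.2 and 55.2). As the mean of sets, N-lim minus OxGlu-lim, at 0.10, passed without DASGIP tagged OxGlu-lim replicate 3, MC tagged N-lim replicate 2 or MC tagged OxGlu-lim replicate 3 (adjusted p of 0.031, 0.041 and 0.041).

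TKL1 encodes the major transketolase, which moves carbon units between sugar phosphates. Its lowest, median and highest levels were 513, 539 and 672 CPM under OxGlu-lim, 426, 454 and 605 under Glu-lim, 312, 467 and 597 under Et-lim, and 364, 427 and 586 under N-lim. All 4 limitations overlapped. TKL1 rose under OxGlu-lim against Glu-lim by 0.24 ± 0.08 (adjusted p = 0.011) as the mean of sets. By set it passed in DASGIP tagged libraries (0.48, adjusted p = 0.0072) and not in MC tagged (0.16, adjusted p = 0.38) or MC untagged libraries (0.09, adjusted p = 0.60). It differed from Glu-lim by 0.01 under Et-lim (95% interval -0.16 to 0.18) and by -0.06 under N-lim (-0.24 to 0.11). N-lim minus Et-lim was -0.07 and did not pass, but without DASGIP tagged Et-lim replicate 1 it was -0.15 (adjusted p = 0.014). Limitation accounted for 26.6% of the variance of its log2 CPM and the spread between replicates for 43.9%, beside medians of 57.7% and 17.0% over all genes. In RKI1, by contrast, limitation accounted for 92.4%.

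TKL2 encodes the minor transketolase. Under Glu-lim it stood at 323, 232 and 326 CPM in DASGIP tagged, 237, 347 and 344 in MC tagged, and 601, 571 and 368 in MC untagged libraries. Under N-lim it stood at 9.52, 10.4 and 9.94 CPM in DASGIP tagged, 145, 187 and 36.7 in MC tagged, and 20.02, 18.6 and 20.9 in MC untagged libraries. The N-lim and Glu-lim libraries did not overlap. TKL2 fell against Glu-lim under N-lim (-3.63 ± 0.24, adjusted p = 2.2e-14, 12.4-fold), OxGlu-lim (-3.20 ± 0.23, adjusted p = 3.5e-13) and Et-lim (-1.04 ± 0.21, adjusted p = 0.00013). The Et-lim libraries held 223, 61.2 and 87.4 CPM in DASGIP tagged, 238, 218 and 220 in MC tagged, and 205, 176 and 198 in MC untagged libraries. The Et-lim difference from Glu-lim in DASGIP tagged libraries was -1.24 (adjusted p = 0.011), where 32.3% of all genes were called. It became -1.98 (adjusted p = 0.00014) without DASGIP tagged Et-lim replicate 1. Without Et-lim replicate 2 or 3 of that set the value no longer passed, at adjusted p of 0.080 and 0.062. In MC untagged libraries the Et-lim difference was -1.41 (adjusted p = 0.0032), where 37.8% of all genes were called, and in MC tagged libraries it was -0.46 and did not pass (adjusted p = 0.31). N-lim and OxGlu-lim differed by -0.44 (95% interval -0.91 to 0.03, adjusted p = 0.086), which passed without any of 3 single libraries (DASGIP tagged Et-lim replicate 1, MC tagged N-lim replicate 2 and MC tagged OxGlu-lim replicate 1, adjusted p of 0.046, 0.022 and 0.040). The first of these libraries is not in the comparison, and without it the log2 fold change stayed at -0.44. The sets ran in opposite directions: -1.36 in DASGIP tagged (adjusted p = 0.0071), -0.64 in MC untagged (adjusted p = 0.17) and 0.68 in MC tagged libraries (adjusted p = 0.13). Without both libraries that stood apart, the MC untagged value (adjusted p = 0.013) and the MC tagged value (1.11, adjusted p = 8.6e-05) passed as well. Neither library is in the MC untagged comparison, where the log2 fold change stayed at -0.64. The tables list YBR116C, whose identifier adjoins that of TKL2, at 13.9% to 24.7% of the TKL2 CPM. Whether both lines count the same reads was not tested.

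TAL1 encodes transaldolase, which exchanges carbon units between the sugar phosphates of the branch. Its median level was 402 CPM under Glu-lim, 295 under N-lim, 305 under Et-lim and 254 under OxGlu-lim. The Glu-lim libraries (350 to 467 CPM) overlapped with those of N-lim (272 to 383) and lay above those of Et-lim (251 to 315) and OxGlu-lim (224 to 297). TAL1 fell against Glu-lim under OxGlu-lim (-0.69 ± 0.05), Et-lim (-0.45 ± 0.05) and N-lim (-0.37 ± 0.05), with adjusted p of 9.4e-14, 2.5e-09 and 4.1e-08. N-lim and Et-lim differed by 0.08 (95% interval -0.02 to 0.17).

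NQM1 is the paralog of TAL1, and its role is less well known. Under N-lim it stood at 5.28, 5.22 and 5.21 CPM in DASGIP tagged, 33.4, 41.1 and 16.4 in MC tagged, and 9.59, 8.16 and 9.23 in MC untagged libraries. Under Glu-lim the corresponding levels were 231, 193 and 228, then 150, 220 and 210, then 317, 316 and 239 CPM. No library of these limitations overlapped. NQM1 fell against Glu-lim by 4.35 ± 0.19 on the log2 scale under N-lim (adjusted p = 5.3e-19, 20.4-fold), the largest difference of any member in these 3 comparisons. It fell by 3.06 ± 0.17 under OxGlu-lim (adjusted p = 7.7e-16) and by 0.56 ± 0.16 under Et-lim (adjusted p = 0.0029). NQM1 was lower under N-lim than under OxGlu-lim (-1.29 ± 0.18, adjusted p = 2.3e-07) as the mean of sets, with -1.81 in DASGIP tagged (adjusted p = 4.0e-05) and -1.37 in MC untagged libraries (adjusted p = 0.00047). In MC tagged libraries it was -0.69 (adjusted p = 0.041), which was lost without N-lim replicate 1 or 3 or OxGlu-lim replicate 2 or 3 of that set (adjusted p of 0.054, 0.25, 0.14 and 0.14). Its Et-lim levels were 205, 71.2 and 88.3 CPM in DASGIP tagged, 169, 183 and 171 in MC tagged, and 186, 157 and 197 in MC untagged libraries. In the MC tagged set the Et-lim difference from Glu-lim was -0.15 (adjusted p = 0.67), where 46.6% of all genes were called. In DASGIP tagged libraries it was -0.84 (adjusted p = 0.018) and became -1.45 (adjusted p = 4.0e-05) without Et-lim replicate 1 of that set. It did not pass without Et-lim replicate 2, Et-lim replicate 3 or Glu-lim replicate 1 of that set (adjusted p of 0.13, 0.10 and 0.054). In MC untagged libraries it was -0.69 (adjusted p = 0.044), which was lost without any of its Et-lim libraries or Glu-lim replicate 1 or 2 (adjusted p of 0.062 to 0.13).

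The remaining pairs of limitations complete the order. N-lim minus OxGlu-lim called 3 members higher and 4 lower, where 71.4% of all genes were called (35.4% higher, 36% lower). ZWF1, RKI1, TKL1 and NQM1 were lower under N-lim, and GND1, TAL1 and SOL3 were higher, as the mean of sets. RKI1 did not pass in MC tagged libraries (-0.09, adjusted p = 0.68), nor TAL1 in DASGIP tagged libraries (0.13, adjusted p = 0.16). For TKL1 the MC untagged group means were 556 CPM under N-lim and 547 under OxGlu-lim. The GND1 call in MC tagged libraries (0.32, adjusted p = 0.043) was lost without N-lim replicate 1 or 2 or OxGlu-lim replicate 1, 2 or 3 of that set (adjusted p of 0.054 to 0.19). Et-lim minus OxGlu-lim called 7 members higher and 3 lower, where 71.7% of all genes were called (35.7% higher, 36.1% lower). The 3 lower under Et-lim were ZWF1 (-0.75 ± 0.05), GND1 (-0.77 ± 0.08) and TKL1 (-0.24 ± 0.08). N-lim minus Et-lim called 2 higher and 6 lower, where 74.1% of all genes were called (37.4% higher, 36.7% lower). GND1 (1.34 ± 0.08) and ZWF1 (0.15 ± 0.05) were the 2 higher under N-lim, and RKI1 was lower (-2.72 ± 0.10), at a 6.60-fold lower level. ZWF1 differed most in MC untagged libraries, with group means of 269 CPM under N-lim and 220 under Et-lim. The corresponding means were 289 and 277 CPM in DASGIP tagged and 262 and 245 in MC tagged libraries.

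Summed per kilobase, the 4 genes of the oxidative branch held 924 to 1065 CPM per kb in the 3 Glu-lim group means, 649 to 722 under N-lim, 550 to 704 under OxGlu-lim and 450 to 530 under Et-lim. The 6 genes of the non-oxidative branch held 1061 to 1354 CPM per kb under Glu-lim, 944 to 1044 under Et-lim, 646 to 724 under OxGlu-lim and 610 to 769 under N-lim. Et-lim was therefore the lowest in the oxidative sums and the second highest in the non-oxidative sums, in all 3 sets. These sums are descriptions without a test.

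Within a library the share of each isoenzyme pair taken by its minor member, in counts per kilobase, was compared next. GND2 took 2.24 ± 0.41% of the GND pair under N-lim in DASGIP tagged and 3.02 ± 0.11% in MC untagged libraries (SD, n = 3). Under Glu-lim it took 35.7 ± 2.1% and 41.0 ± 9.3% in the same sets. In MC tagged N-lim libraries the share was 21.7%, 20.2% and 9.60%. TKL2 took 2.36 ± 0.31% of the TKL pair under N-lim and 39.7 ± 4.7% under Glu-lim in DASGIP tagged libraries, and 49.7 ± 10.3% under Glu-lim in MC untagged libraries, where 2 of 3 libraries lay above 50%. NQM1 took 1.72 ± 0.18% of its pair with TAL1 under N-lim and 35.0 ± 1.4% under Glu-lim in DASGIP tagged libraries. The DASGIP tagged Et-lim libraries were split in all 3 pairs, with 46.2%, 14.1% and 19.6% for GND2 in replicates 1, 2 and 3.

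The log2 ratio of minor to major gene was tested with an exact permutation test, two-sided, with labels permuted within sets, over 3 pairs of genes and 6 pairs of limitations. Of these 18 differences, 15 passed after Benjamini-Hochberg adjustment. Against Glu-lim under N-lim the difference in log2 ratio was -3.56 for GND2 to GND1, -3.65 for TKL2 to TKL1 and -4.004 for NQM1 to TAL1. Each had a permutation p of 0.00025, the smallest that 8000 arrangements can give, and an adjusted p of 0.00038. Under OxGlu-lim it was -2.68, -3.45 and -2.39, with the same permutation p. The 3 differences that did not pass were GND2 to GND1 for Et-lim minus Glu-lim (-0.58, adjusted permutation p = 0.054), TKL2 to TKL1 for N-lim minus OxGlu-lim (-0.20, adjusted permutation p = 0.55) and NQM1 to TAL1 for Et-lim minus Glu-lim (-0.16, adjusted permutation p = 0.49). The GND2 to GND1 value for Et-lim minus Glu-lim passed when DASGIP tagged Et-lim replicate 1 (adjusted permutation p = 0.0039), replicate 1 of MC tagged Glu-lim (0.024) or replicate 3 of MC untagged Glu-lim (0.026) was left out. The GND2 to GND1 value for N-lim minus OxGlu-lim was -0.89 (adjusted permutation p = 0.014), and did not pass with the replicate number as a block (adjusted permutation p = 0.056). By set it was -1.38, 0.22 and -1.51 in DASGIP tagged, MC tagged and MC untagged libraries.

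**Figure D3:**
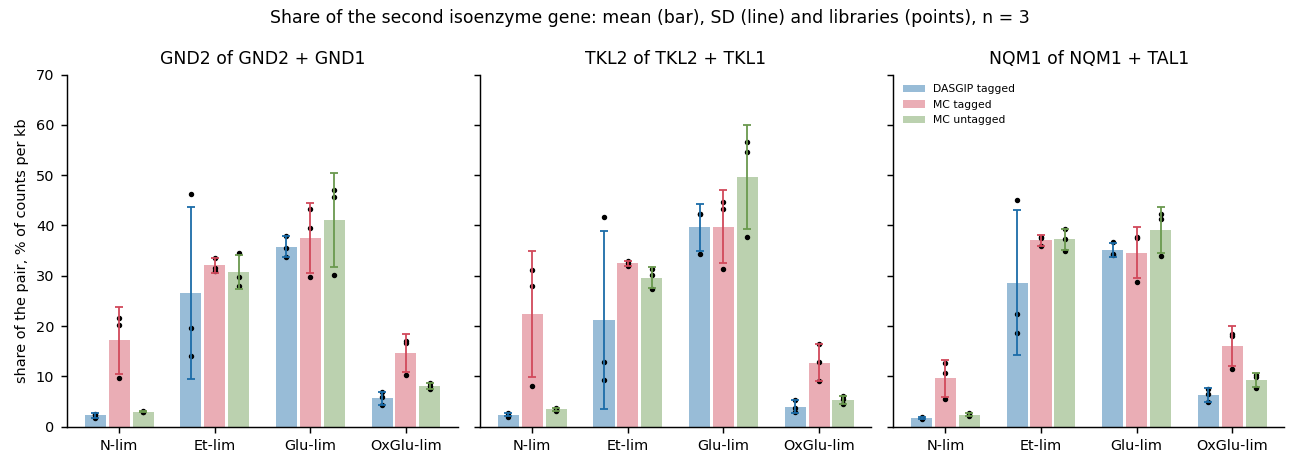
Share of the minor isoenzyme gene in its pair, in percent of counts per kb, by limitation and set: bars are means, lines SD and points the 3 libraries. The shares lie between 1.53% and 3.66% under N-lim in DASGIP tagged and MC untagged libraries and between 28.7% and 56.5% in all Glu-lim libraries, with MC tagged N-lim at 5.58% to 31.2%.

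The vessel comparison was made within the strain HAP1-TAP, as MC tagged minus DASGIP tagged. As the mean of 4 limitations, 4 members were higher in MC vessels and 1 lower, where 34.4% of all genes were called (17.1% higher, 17.3% lower). TKL2 rose by 1.54 ± 0.19 (adjusted p = 4.7e-07), NQM1 by 1.07 ± 0.15 (1.7e-06), GND2 by 1.06 ± 0.16 (7.4e-06) and RPE1 by 0.12 ± 0.04 (0.023). GND1 fell by 0.27 ± 0.07 (adjusted p = 0.0022). The RPE1 call was lost without MC tagged Et-lim replicate 1 (adjusted p = 0.052). The number of lower members became 3 without DASGIP tagged Et-lim replicate 1, 2 without DASGIP tagged N-lim replicate 3 or MC tagged N-lim replicate 2, and 4 without both libraries that stood apart, when ZWF1, TKL1 and TAL1 also passed.

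By limitation, the minor isoenzyme genes passed the vessel test under N-lim and OxGlu-lim. Under N-lim, where 18.3% of all genes were called, TKL2 was higher in MC vessels by 3.62 ± 0.43, GND2 by 2.82 ± 0.34 and NQM1 by 2.53 ± 0.33, with adjusted p of 5.6e-07, 7.3e-07 and 2.2e-06. All 3 MC tagged libraries lay above all 3 DASGIP tagged libraries in each gene. GND1 was lower there (-0.41, adjusted p = 0.027), which was lost without DASGIP tagged N-lim replicate 1 or 2 or MC tagged N-lim replicate 1 or 3 (adjusted p of 0.13, 0.059, 0.066 and 0.096). Under OxGlu-lim, where 17.6% of all genes were called, the 3 genes were higher by 1.59 ± 0.39, 1.49 ± 0.33 and 1.41 ± 0.30 in the same order, with adjusted p of 0.0053, 0.0020 and 0.0013. RKI1 was lower there (-0.72 ± 0.17, adjusted p = 0.0042), at 21.02, 17.7 and 13.2 CPM in MC tagged against 24.7, 32.1 and 28.6 in DASGIP tagged libraries. Under Glu-lim 0 members were called by edgeR (1 lower at an unadjusted p under 0.05, DESeq2 not run on this comparison), where 21.1% of all genes were called. Under Et-lim, where 11.8% of all genes were called, GND1 was lower (-0.46 ± 0.13, adjusted p = 0.020) and RPE1 higher by 0.25 ± 0.08 (adjusted p = 0.046). The GND1 call did not pass when any of the 6 libraries compared but DASGIP tagged Et-lim replicate 1 was left out, and the RPE1 call was lost without DASGIP tagged Et-lim replicate 1, 2 or 3 or MC tagged Et-lim replicate 1 or 2 (adjusted p of 0.076 to 0.23). Without DASGIP tagged Et-lim replicate 1, TKL2 (1.60, adjusted p = 0.0034) and NQM1 (1.13, adjusted p = 0.0020) were higher in MC vessels under Et-lim too, while TKL1 (-0.35, adjusted p = 0.020) and ZWF1 (-0.25, adjusted p = 0.04999) were lower.

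The strain comparison was made within MC vessels, as MC tagged minus MC untagged, and shares the MC tagged libraries with the vessel comparison. As the mean of 4 limitations, 3 members were higher in the tagged strain and 1 lower, where 18.1% of all genes were called (8.38% higher, 9.77% lower). GND2 rose by 0.86 ± 0.16 (adjusted p = 0.00035), TKL2 by 0.86 ± 0.19 (0.0020) and NQM1 by 0.55 ± 0.14 (0.0076). TAL1 fell by 0.14 ± 0.04 (adjusted p = 0.018), which was lost with upper-quartile scaling. TKL1 joined the lower members without DASGIP tagged Et-lim replicate 1 (-0.16, adjusted p = 0.012). That library is not in this comparison, and the log2 fold change of TKL1 was -0.16 with it too. The pass therefore reflects the estimated spread, and no conclusion is drawn from it.

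Under N-lim, where 32.4% of all genes were called between the strains, TKL2 was higher in the tagged strain by 2.63 ± 0.40, GND2 by 2.54 ± 0.33 and NQM1 by 1.75 ± 0.31, with adjusted p of 1.8e-05, 2.6e-06 and 0.00011. The lowest MC tagged N-lim library, replicate 3, held 47.8 CPM of GND2, 36.7 of TKL2 and 16.4 of NQM1, still above all MC untagged N-lim libraries. The major genes of 2 pairs moved the other way: TAL1 fell by 0.38 ± 0.08 (adjusted p = 0.00097) and TKL1 by 0.48 ± 0.14 (adjusted p = 0.012), at 371, 413 and 414 CPM against 533, 586 and 550. The TKL1 call did not pass without MC tagged N-lim replicate 1 (adjusted p = 0.058). Under OxGlu-lim, where 24.1% of all genes were called, GND2, TKL2, NQM1 and ZWF1 were higher in the tagged strain by 1.13, 1.31, 1.08 and 0.47, and RKI1 was lower (-0.78 ± 0.17, adjusted p = 0.0017). The GND2 call there was lost without MC tagged OxGlu-lim replicate 2 or 3 or MC untagged OxGlu-lim replicate 1 (adjusted p of 0.051, 0.051 and 0.054). The TKL2 call was lost without the first or last of these (0.071 and 0.076) and the NQM1 call without the last (0.057). Under Et-lim 0 members were called by edgeR, with 0 at an unadjusted p under 0.05 and DESeq2 not run on this comparison, and 0.272% of all genes were called.

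Under Glu-lim the strain comparison called 22.5% of all genes, and among the members ZWF1 fell by 0.39 ± 0.08 (adjusted p = 0.0018), TAL1 fell by 0.31 ± 0.08 (adjusted p = 0.0070) and RKI1 rose by 0.48 ± 0.17 (adjusted p = 0.039). The RKI1 call was lost when any of its 6 libraries was left out (adjusted p of 0.055 to 0.13). ZWF1 stood at 275, 301 and 296 CPM in MC tagged against 397, 380 and 361 in MC untagged Glu-lim libraries, and at 453, 474 and 535 against 341, 384 and 329 under OxGlu-lim. Neither comparison overlapped, and their directions were opposite. GND2, TKL2 and NQM1 differed between the strains under Glu-lim by -0.33, -0.73 and -0.59 (adjusted p of 0.45, 0.15 and 0.11). Without both libraries that stood apart, neither of which is in this comparison, TKL2 and NQM1 passed as lower in the tagged strain (adjusted p of 0.0063 and 0.0080) at the same log2 fold changes. That fit was chosen after seeing the data. With the log2 fold changes unmoved, the pass reflects the estimated spread, and no conclusion is drawn from it.

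Whether these differences varied between the 4 limitations was tested directly, with edgeR's F test of the interaction. The vessel difference varied for 5 of the 10 members, GND2, TKL2, NQM1, ZWF1 and RKI1, where it varied for 24.1% of all genes. The ZWF1 call was lost without DASGIP tagged OxGlu-lim replicate 2 or 3 or MC tagged OxGlu-lim replicate 3 (adjusted p of 0.054, 0.068 and 0.092). The strain difference varied for 6 members, the same 5 and TAL1, where it varied for 47.7% of all genes.

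**Figure D4:**
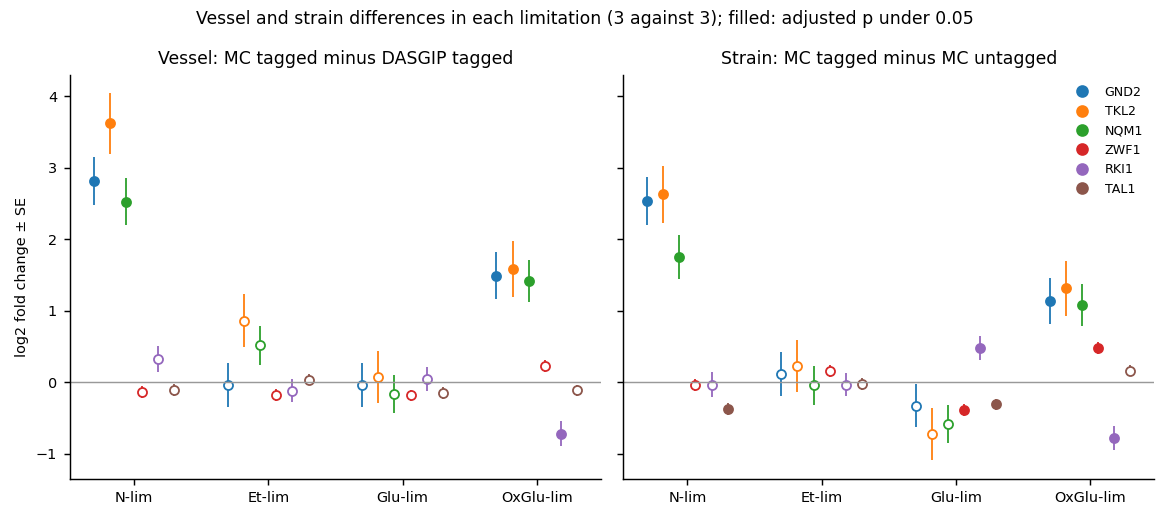
Log2 fold change ± SE between vessels and between strains in each limitation (3 against 3 libraries); filled symbols passed the adjusted p of 0.05. TKL2, GND2 and NQM1 reach 3.62, 2.82 and 2.53 for the vessel and 2.63, 2.54 and 1.75 for the strain under N-lim, and none of the 3 passed under Et-lim or Glu-lim.

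Genes around the pathway were taken from 5 lists. Beside their counts stand the shares of all genes called against Glu-lim. These were 34.3% higher and 37.4% lower under N-lim, 30.6% and 28.7% under Et-lim, and 32.9% and 32.3% under OxGlu-lim. Of 18 genes that feed or drain it, 4 were higher and 10 lower under N-lim than under Glu-lim (median log2 fold change -0.20), 2 and 7 under Et-lim (-0.12), and 6 and 7 under OxGlu-lim (-0.07). SOL4, the paralog of SOL3, fell under all 3 (-1.45 ± 0.16, -1.14 ± 0.16 and -2.84 ± 0.18 in the same order of limitations). SHB17, the sedoheptulose bisphosphatase that can feed the non-oxidative branch, rose under N-lim (0.21 ± 0.07) and fell under Et-lim (-0.40 ± 0.07) and OxGlu-lim (-0.17 ± 0.07). In the order N-lim, OxGlu-lim and Glu-lim, its group means were 68.6, 48.1 and 49.4 CPM in DASGIP tagged libraries. They were 55.6, 36.7 and 51.4 in MC tagged and 56.2, 56.0 and 55.1 in MC untagged libraries. The OxGlu-lim fall thus lay mainly in the MC tagged set and the N-lim rise mainly in the DASGIP tagged set. HXK1, a hexokinase that makes glucose 6-phosphate, rose under OxGlu-lim (2.35 ± 0.22) and fell under N-lim (-0.81 ± 0.21) and Et-lim (-2.02 ± 0.22). Its N-lim fall does not describe the MC tagged set, which held 1047 ± 872 CPM under N-lim and 560 ± 59.4 under Glu-lim (SD, n = 3). In 15 genes of other NADPH sources and uses, 4 were higher and 10 lower under N-lim (median -0.62), 6 and 7 under Et-lim (-0.003) and 2 and 10 under OxGlu-lim (-0.32). ALD6, the cytosolic acetaldehyde dehydrogenase that also makes NADPH, rose under Et-lim (0.85 ± 0.14) and fell under N-lim (-1.05 ± 0.14). ZTA1, an NADPH-dependent quinone reductase, fell under all 3, with log2 fold changes of -2.205, -0.47 and -2.88. GLR1, glutathione reductase, rose under N-lim (0.55 ± 0.04) and Et-lim (0.41 ± 0.04) and fell under OxGlu-lim (-0.09 ± 0.04). The OxGlu-lim fall of GLR1 lay in the MC untagged set, at 73.4 CPM against 88.3 under Glu-lim. The corresponding group means were 83.0 and 83.7 CPM in DASGIP tagged and 81.9 and 81.6 in MC tagged libraries.

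Aromatic amino acid synthesis draws on erythrose 4-phosphate. Of its 11 genes, 1 was higher and 9 lower under N-lim than under Glu-lim (median -0.58), 1 and 9 under Et-lim (-0.23) and 0 and 7 under OxGlu-lim (-0.53). ARO3 and ARO4, the synthases of the first step, fell under N-lim by 0.76 and 1.20, and ARO3 fell under OxGlu-lim by 1.42 on the log2 scale. Of 10 regulators, 5 were higher and 4 lower under N-lim, 3 and 5 under Et-lim, and 2 and 4 under OxGlu-lim. STB5, an activator of pathway genes, fell under N-lim (-0.16 ± 0.06) and OxGlu-lim (-0.35 ± 0.07) and rose under Et-lim (0.17 ± 0.06). MSN4, a stress regulator, rose under N-lim (2.29 ± 0.06) and OxGlu-lim (1.23 ± 0.06). CAT8 and ADR1, activators of growth on ethanol, rose under Et-lim by 0.67 and 0.99. All values are against Glu-lim. Of all genes, 34.3% were higher and 37.4% lower under N-lim, 30.6% and 28.7% under Et-lim, and 32.9% and 32.3% under OxGlu-lim.

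The general stress list of 16 genes had 2 higher and 13 lower under N-lim than under Glu-lim (median log2 fold change -0.81, beside -0.02 over all genes). It had 0 and 10 under Et-lim (-0.84) and 2 and 13 under OxGlu-lim (-1.13). The shares of all genes were 34.3% higher and 37.4% lower under N-lim, 30.6% and 28.7% under Et-lim, and 32.9% and 32.3% under OxGlu-lim. Without both libraries that stood apart, 15 were lower under Et-lim. HSP26, a small heat-shock protein, fell in all 3 (-4.14, -2.36 and -4.42, in the order N-lim, Et-lim, OxGlu-lim). CTT1, the cytosolic catalase, fell likewise (-1.95, -2.04 and -3.45). Other genes of the list rose in 1 limitation. HXK1, which is also on this list, rose under OxGlu-lim (2.35 ± 0.22) and fell under N-lim and Et-lim. HOR7 rose under N-lim (0.20 ± 0.06) and fell under Et-lim (-0.46 ± 0.06) and OxGlu-lim (-1.24 ± 0.06). The N-lim rise of HOR7 does not describe the MC untagged set, with group means of 429 CPM under N-lim and 471 under Glu-lim. In the vessel comparison 8 of the 16 were higher and 1 lower in MC tagged libraries, where 17.1% of all genes were higher and 17.3% lower. The strain comparison had 10 higher and 0 lower (12 and 0 without both libraries), where 8.38% of all genes were higher and 9.77% lower. In DASGIP tagged Et-lim libraries, the stress genes had a mean log2 CPM of 8.03, 6.79 and 7.07 in replicates 1, 2 and 3, where GND2, TKL2 and NQM1 were also highest in replicate 1. In MC tagged N-lim libraries it was 8.32, 8.21 and 7.74, where the same 3 genes were lowest in replicate 3. The part of the stress genes in the results was not tested.

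**Figure D5:**
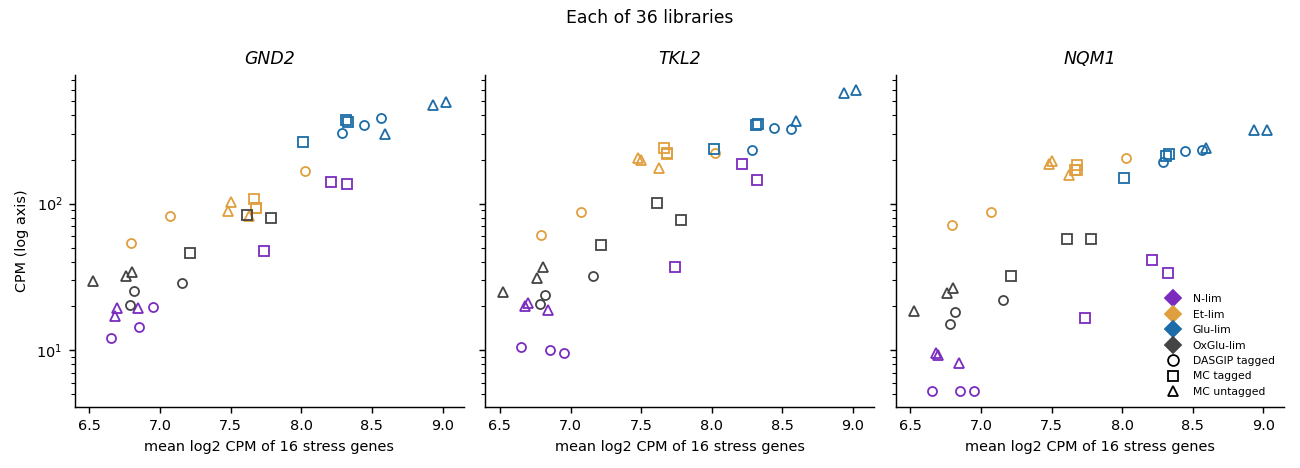
CPM (log axis) of GND2, TKL2 and NQM1 against the mean log2 CPM of the 16 stress genes in each of 36 libraries, coloured by limitation with symbols for the sets. Libraries with a high stress mean are high in the 3 genes, but MC tagged N-lim replicates 1 and 2 hold 33.4 and 41.1 CPM of NQM1 at stress means of 8.32 and 8.21, while the Glu-lim libraries hold 150 to 317 CPM at means of 8.01 to 9.02.

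Across the 12 group means of log2 CPM, GND2, TKL2 and NQM1 followed each other (Pearson r of 0.96 for GND2 with TKL2, 0.97 for TKL2 with NQM1 and 0.91 for GND2 with NQM1). The minor genes did not follow their major partners in the same way: r was 0.03 for GND2 with GND1, -0.28 for TKL2 with TKL1 and 0.45 for NQM1 with TAL1. The 12 points share libraries, limitations and sets, and these values are descriptions. Among genes that are no members, GND2 was closest to HSP26 (0.99), SSE2 (0.99) and PAI3 (0.99). TKL2 was closest to the adjoining line YBR116C (1.00), then to HBT1 (0.99) and YKL107W (0.98), and NQM1 to YIL055C (0.99), YKL065W-A (0.98) and CRF1 (0.98). RKI1 was closest to CRC1 (0.97), the mitochondrial carnitine carrier, to FBP1 (0.96), the gluconeogenic fructose bisphosphatase, and to ODC1 (0.96). GND1 was closest to the adjoining line YHR182C-A (1.00) and then to YLR108C (0.93) and YAL037C-B (0.92). ZWF1 was closest to NAM2 (0.92), SOL3 to ALG13 (0.96), RPE1 to BDS1 (0.97), TKL1 to YOR342C (0.91) and TAL1 to TRP4 (0.91), a tryptophan synthesis gene.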

How the data were processed

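Total RNA, extracted on columns and depleted of ribosomal RNA before stranded library preparation per the labels' protocols, was sequenced from 36 chemostat cultures. The authors deposited whole-number counts per gene for each library, which were used as deposited. Bowtie2, SAMtools and bedtools with genome build R64 are named in the submitters' processing notes, while how reads were counted, and whether by strand, is not given in the sources used here. Each table has 7126 lines, of which 4 were not analysed here and 7122 name a gene, and 36 columns named CPM were not used. The count tables held 10.7 to 22.5 M counts per library, so each member was read from at least 85 counts.

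Library sizes were scaled by TMM (factors 0.63 to 1.32), and genes with low counts were removed with edgeR's default filter, leaving 6612 genes. All 36 libraries entered a single quasi-likelihood fit of the 12 groups (edgeR 4.0.16 and limma 3.58.1 in R 4.3.3), with 24 residual degrees of freedom. Contrasts were tested with the quasi-likelihood F test and adjusted by Benjamini-Hochberg over all genes, and SE and intervals were derived from the same F statistic. Whether the vessel or strain difference varied by limitation was tested with the interaction contrasts. Isoenzyme ratios used counts with 0.5 added. The procedure was tested on simulated data. DESeq2 1.42.0, other scalings and filters, a replicate block and leaving out each library were tried as alternatives. The members and gene lists were chosen with earlier results of these data known. All 10 members are named, with up to 6 genes per list (those called in the most limitation contrasts and with the widest range of group means), SOL4, SHB17, STB5 and ALD6, and the 3 genes closest to each member. Sequences come from the R64 genome of RefSeq.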

Additional observations from a re-analysis of the deposited data

Results flagged for a closer look

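The difference between vessels was not the same in the 4 limitations for 5 of the 10 members, where 24.1% of all genes passed the same edgeR F test. The adjusted p was 6.13e-05 for GND2, 0.000178 for NQM1, 0.000193 for TKL2, 0.013 for RKI1 and 0.0227 for ZWF1. GND2, TKL2 and NQM1 were higher in MC vessels by 2.82, 3.62 and 2.53 on the log2 scale under N-lim and did not pass under Glu-lim. The ZWF1 result did not pass without DASGIP tagged OxGlu-lim replicate 2 or 3 or MC tagged OxGlu-lim replicate 3 (adjusted p of 0.054, 0.068 and 0.092). GND1 passed without DASGIP tagged Et-lim replicate 1 (0.0046), and SOL3 without MC tagged N-lim replicate 3 (0.018) or MC tagged OxGlu-lim replicate 3 (0.025).

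The difference between strains was not the same in the 4 limitations for 6 members, where 47.7% of all genes passed. The adjusted p was 2.93e-05 for ZWF1, 7.47e-05 for GND2, 0.00013 for TKL2, 0.000184 for NQM1, 0.00123 for TAL1 and 0.00135 for RKI1. ZWF1 was lower in the tagged strain under Glu-lim (-0.39) and higher under OxGlu-lim (0.47), and RKI1 stood at 0.48 and -0.78 in the same limitations. Without DASGIP tagged Et-lim replicate 1, GND1 (0.049) and TKL1 (0.0093) also passed. That library is not in the strain comparison, and no conclusion is drawn from these passes. SOL3 passed without MC tagged N-lim replicate 3 (0.013) or MC tagged OxGlu-lim replicate 1 (0.026), and RPE1 without MC tagged OxGlu-lim replicate 2 (0.029). The vessel and strain comparisons share the MC tagged libraries, and there was no untagged DASGIP set. Vessel, strain and anything particular to the MC tagged set therefore cannot be fully told apart.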

How the results depend on the processing

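Of 220 counts recomputed under other scalings, filters, tools and designs, 216 stayed within 1.5 times, and of 900 with 1 library left out, 896 did. The 900 include recounts in which the library left out is not in the comparison. Such a library enters only through the scaling, the filter and the estimated spread, so little change was possible there. No difference that passed the test changed sign under the alternatives run. Some that did not pass changed sign without 1 library: TKL1 for Et-lim minus Glu-lim (-0.04 to 0.09), GND1 for N-lim minus Glu-lim (-0.04 to 0.03), RPE1 for OxGlu-lim minus Glu-lim (-0.05 to 0.01), SOL3 (-0.01 to 0.05) and RPE1 (-0.03 to 0.01) between strains, and the TKL2 to TKL1 ratio for N-lim minus OxGlu-lim (-0.34 to 0.05). With upper-quartile scaling 0 members were lower in the tagged strain, as the mean of 4 limitations, and 2 were when only the libraries compared were fitted. Leaving out both libraries that stood apart, an alternative chosen after seeing the data, gave 2 lower members between strains and 4 between vessels. Over the 36 fits without 1 library, lower members ranged from 1 to 3 between vessels and from 1 to 2 between strains. The 2 between strains arose without DASGIP tagged Et-lim replicate 1, which is not in that comparison. The SOL3 difference between N-lim and OxGlu-lim lost its call with upper-quartile scaling (adjusted p = 0.061), a filter of 5 CPM in 3 libraries (0.056), nuclear reading frames only (0.059) and the compared libraries only (0.089), and the cause was not tested. Deviations from group means in same-numbered libraries of a set had a mean correlation of 0.033 (-0.178 to 0.293). For libraries of other numbers it was -0.016 (-0.382 to 0.231). These values cannot show whether the numbers pair samples, and the main fit does not pair them. A replicate block called 2289 genes between vessels, 1159 between strains and 4728 between N-lim and Glu-lim, against 2273, 1200 and 4741 without it, and left the member counts as they were. With the block 14 of 18 ratio differences passed instead of 15, GND2 to GND1 for N-lim minus OxGlu-lim having an adjusted permutation p of 0.056. Depth limits NQM1 most, which had 85 counts in its lowest library.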

Other observations

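Among the lists, the strain comparison called 0 genes of aromatic amino acid synthesis higher and 6 of 11 lower (median log2 fold change -0.16), and 5 of 15 genes of NADPH sources and uses higher with 0 lower (median 0.09), as means of 4 limitations by edgeR, where 8.38% of all genes were higher and 9.77% lower. The vessel comparison called 0 higher and 3 lower in the first of these lists and 3 higher and 3 lower in the second, where 17.1% of all genes were higher and 17.3% lower.

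GDH3, an NADPH-dependent glutamate dehydrogenase, rose under Et-lim against Glu-lim (1.41 ± 0.08) and fell under N-lim (-0.67 ± 0.08). Its N-lim fall does not describe the MC tagged set, which held 35.4 ± 1.8 CPM under N-lim and 30.6 ± 2.1 under Glu-lim (SD, n = 3). TYE7, a regulator of glycolytic genes, rose under N-lim (1.19 ± 0.08) and fell under Et-lim (-0.70 ± 0.08). POS5, the mitochondrial NADH kinase, fell under N-lim, Et-lim and OxGlu-lim by 0.62, 0.20 and 1.03 on the log2 scale.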
